A study of Mus musculus with 6 samples.

Results

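The 33 genes described here carry out or control the synthesis, uptake, storage and export of sterols, and all 33 were found by gene symbol among the 23268 genes of the deposited table. They were measured by RNA sequencing of group 2 innate lymphoid cells (ILC2s), tissue-resident lymphocytes without an antigen receptor, obtained by sorting from colons of C57BL/6 mice that were 6 to 8 weeks old. In the DSS group the mice had received 3% dextran sulfate sodium (DSS), a polymer that injures the colon epithelium and causes colitis, for 6 days. In the Control group they had received water over the same days. Each group had 3 libraries, and no genetic change was listed for either group. How many mice gave cells to a library is not given in the sources used here, so the p-values measure the spread between these libraries, which may be partly technical.

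Cells make cholesterol from acetyl-CoA through the mevalonate pathway, which also gives the isoprenoids that are attached to proteins, and through a long series of sterol enzymes. When sterol in the endoplasmic reticulum is low, SCAP carries the transcription factor SREBP2 to the Golgi, where it is cut and released to switch on the genes of synthesis and uptake, and INSIG proteins hold SCAP back when sterol is plentiful. The liver X receptors (LXRs) are nuclear receptors that bind oxidised sterols and switch on genes of export, such as the transporters ABCA1 and ABCG1. In lymphocytes, sterol synthesis is known to be raised when cells grow and divide. Of the 33 genes, 21 are counted here as SREBP2 targets and 4 (Abca1, Abcg1, Mylip and Srebf1) as LXR targets.

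Proximal promoters are shown for 5 SREBP2 targets whose 3 DSS values all lay below the 3 Control values, and for the LXR target Abca1 beside them. Each sequence runs 5′ to 3′ on the strand of the gene, from 250 bases before to 50 bases after the annotated start, and comes from RefSeq on build GRCm38.p6. Capitals mark the letters TCACCCCA or their reverse complement TGGGGTGA, the core of many sterol regulatory elements, and CCAAT or its reverse complement ATTGG, the CCAAT box bound by NF-Y, a factor known to act with SREBPs. The regions are chr13:119690101-119690400 for Hmgcs1 (plus strand), chr5:114444019-114444318 for Mvk (plus strand), chr5:4104648-4104947 for Cyp51 (minus strand), chr15:82147019-82147318 for Srebf2 (plus strand), chr5:28071162-28071461 for Insig1 (plus strand) and chr4:53159846-53160145 for Abca1 (minus strand).
Hmgcs1: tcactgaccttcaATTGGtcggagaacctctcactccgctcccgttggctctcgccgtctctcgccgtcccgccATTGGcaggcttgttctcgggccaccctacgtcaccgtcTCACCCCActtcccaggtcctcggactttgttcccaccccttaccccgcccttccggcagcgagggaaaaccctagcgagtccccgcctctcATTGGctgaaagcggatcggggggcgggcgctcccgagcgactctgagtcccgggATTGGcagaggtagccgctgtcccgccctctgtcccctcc
Mvk: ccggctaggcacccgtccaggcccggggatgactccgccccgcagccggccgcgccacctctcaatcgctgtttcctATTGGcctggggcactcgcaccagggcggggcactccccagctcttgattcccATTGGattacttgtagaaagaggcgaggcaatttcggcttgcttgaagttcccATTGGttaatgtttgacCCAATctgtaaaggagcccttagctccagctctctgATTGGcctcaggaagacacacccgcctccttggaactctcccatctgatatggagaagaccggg
Cyp51: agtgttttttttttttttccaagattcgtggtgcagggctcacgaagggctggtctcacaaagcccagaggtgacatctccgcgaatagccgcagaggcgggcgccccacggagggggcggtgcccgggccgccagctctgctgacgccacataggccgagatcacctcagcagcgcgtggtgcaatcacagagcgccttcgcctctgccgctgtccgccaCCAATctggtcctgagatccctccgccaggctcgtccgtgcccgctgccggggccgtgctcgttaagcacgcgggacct
Srebf2: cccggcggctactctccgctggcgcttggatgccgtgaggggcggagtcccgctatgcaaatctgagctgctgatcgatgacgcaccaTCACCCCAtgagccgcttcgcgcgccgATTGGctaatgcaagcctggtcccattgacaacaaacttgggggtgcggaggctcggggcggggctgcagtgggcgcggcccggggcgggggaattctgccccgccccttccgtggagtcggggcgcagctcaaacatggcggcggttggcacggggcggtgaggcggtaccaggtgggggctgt
Insig1: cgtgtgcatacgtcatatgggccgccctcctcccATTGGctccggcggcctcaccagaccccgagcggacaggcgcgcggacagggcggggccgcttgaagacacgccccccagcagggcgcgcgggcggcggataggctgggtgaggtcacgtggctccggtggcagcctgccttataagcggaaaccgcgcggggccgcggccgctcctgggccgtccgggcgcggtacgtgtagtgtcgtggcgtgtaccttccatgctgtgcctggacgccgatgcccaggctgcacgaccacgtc
Abca1: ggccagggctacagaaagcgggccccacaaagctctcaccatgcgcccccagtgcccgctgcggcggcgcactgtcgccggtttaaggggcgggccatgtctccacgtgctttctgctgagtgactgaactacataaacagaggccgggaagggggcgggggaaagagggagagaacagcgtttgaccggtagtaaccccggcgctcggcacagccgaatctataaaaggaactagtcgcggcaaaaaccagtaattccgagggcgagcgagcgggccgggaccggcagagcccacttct

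A promoter was held for 27 of the 33 genes, and 5 motifs, chosen after these promoters had been read, were searched on both strands. A gene with several annotated starts, as 6 of the 27 have, counted where any of its promoters matched. TCACCCCA was found in 2 of the 27, Hmgcs1 and Srebf2, against 1.66% of the promoters of 9381 genes tested for expression here and 1.77% of all 27025 genes with a promoter. The longer letters TCACNCCAC, which overlap TCACCCCA, were found only in Hmgcs1 among the 27, and in 1.35% of tested genes. CCAAT was found in 22 of the 27 (81.5%), against 42.97% of tested genes. Among the genes whose DSS libraries all lay below the Control libraries, 10 had a promoter and all 10 held CCAAT. Of the genes whose DSS libraries all lay above the Control libraries, Ggps1 held 3 copies, Npc2 2 and Acat2 none. The Mvk promoter held 5 copies and the Hmgcs1 promoter 4. Among the LXR targets Abca1 had none, while Mylip held 3 and Srebf1 at most 1 in a promoter. Whether CCAAT goes with a lower level in DSS was not tested. The E-box CACGTG was found in 6 of the 27 (22.2%), against 11.9% of tested genes. The LXR direct repeat, AGGTCA written again after 4 bases of any kind, was in none of the 27, in none of the tested genes with a promoter, and in 4 of all 27025. These matches describe letters in a window of 300 bases.

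The libraries held 9962415 to 23119390 fragments assigned to genes, as recovered from the FPKM values (fragments per kilobase of gene, scaled to library depth). DSS replicate 3 and Control replicate 3 had the most genes above 0, with 22153 and 21647, against 15809 to 19290 in the other 4 libraries. These 2 libraries had the fewest fragments, 9962415 and 12670662. Control replicate 1, with the most fragments, had the fewest genes above 0. DSS replicate 1 stood apart in base composition and transcript length. Its departures from the mean of all libraries had a Spearman rho of -0.23 with the GC content of genes, against -0.081 to 0.16 in the other libraries. With transcript length the rho was -0.28, against 0.046 to 0.18 in the other libraries. Ribosomal protein genes took 12.8% of its fragments, against 6.13 to 8.70%. The summed FPKM of 11 ILC2 markers was 2172 to 2423 in DSS and 3669 to 3824 in Control libraries, with all 11 above 0 in every library. Hs3st1 and Gata3 had the largest means in both groups. The mean log2 level was lower in DSS for 9 of the 11 and higher for 2, Il17rb (log2 change 0.25) and Il7r (0.07). Il5, the cytokine interleukin 5, was the marker of this list that passed the test (log2 change -2.43, adjusted p = 0.000866, limma). Markers of other cells were also present. The summed FPKM of 8 neutrophil markers was 68.1 to 103 in DSS and 2.97 to 6.50 in Control libraries. Of the 8, S100a8, S100a9 and Retnlg passed the test, all higher in DSS. Csf3r and Lcn2 had higher means in DSS and were not called. Cxcr2, with means of 0.353 FPKM in DSS and 0.333 FPKM in Control, was too low to test, as was Ly6g. Mmp9 (0.842 in DSS against 1.28 FPKM in Control) and Ly6g (0.0701 against 0.168 FPKM) had lower means in DSS. S100a8, Retnlg, Cxcr2, Ly6g and Lcn2 were at 0 in some library, and of these only Ly6g was at 0 in a DSS library. The 10 epithelial markers summed to 49.2 to 57.4 in DSS and 20.4 to 37.9 in Control libraries, with Krt19, Krt20 and Vil1 at 0 in some library. The 10 macrophage markers summed to 14.6 to 32.0 in DSS and 11.1 to 15.4 in Control libraries, with overlap. Of these, Adgre1, Csf1r, C1qa, C1qc and Mrc1 were at 0 in some library. Sums also overlapped between DSS and Control for T cell markers (22.1 to 62.7 and 24.4 to 35.4, with Cd8a and Cd8b1 at 0 in some library), ILC3 markers (79.0 to 339 and 235 to 341) and stromal markers (10.1 to 25.9 and 17.9 to 31.8). The part of other cells in the sterol genes was not tested, and in bulk RNA a smaller share of expressing cells and less RNA per cell cannot be told apart.

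The comparison of DSS with Control asks which transcript levels of colonic ILC2s differ in mice with DSS colitis. Levels of SREBP2 targets were mostly lower in DSS libraries and those of LXR targets were mixed, and no sterol gene passed the test across all genes. The log2 change, taken here as the DSS mean less the Control mean of log2(FPKM + 1), a scale that shrinks differences of low genes, was below 0 for 16 of 21 SREBP2 targets and above 0 for 5. Over all 12187 genes tested it was below 0 for 46.9% and above 0 for 53.1%. Every DSS library lay below every Control library for 10 of the 21, against 9.6% of all genes tested, and above for 1 of the 21, against 6.35%. The median log2 change was -0.54 for the SREBP2 targets and 0.03 for all genes tested. For the 4 LXR targets the median was 0.14, with 2 below 0 and 2 above, and 1 of the 4 had all DSS libraries below all Control libraries. The difference between the SREBP2 and LXR targets was not tested.

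Over all 33 genes, each of which had a mean of at least 1 FPKM, 22 had a lower and 11 a higher mean log2 level in DSS. In 12 of the 33 all DSS libraries lay below all Control libraries, against 9.6% of all genes tested. In 3 of the 33 they lay above, against 6.35% of all genes tested. An unadjusted limma p under 0.05 was reached by 11 genes, all lower in DSS, against 5.42% of all genes tested with a lower and 3.57% with a higher level. None of the 33 had an adjusted p under 0.05 (limma, Benjamini-Hochberg), against 0.148% of genes tested that fell and 0.0738% that rose; the lowest adjusted p was 0.136, for Cyp51. Limma voom on the recovered fragments also called none of them. Without DSS replicate 1, limma called 435 genes instead of 27, and 5 sterol genes were among them: Hmgcs1, Fdps, Cyp51 and Msmo1 fell (2.32% of genes tested fell in that fit) and Abcg1 rose (1.15% rose).

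**Figure D1:**
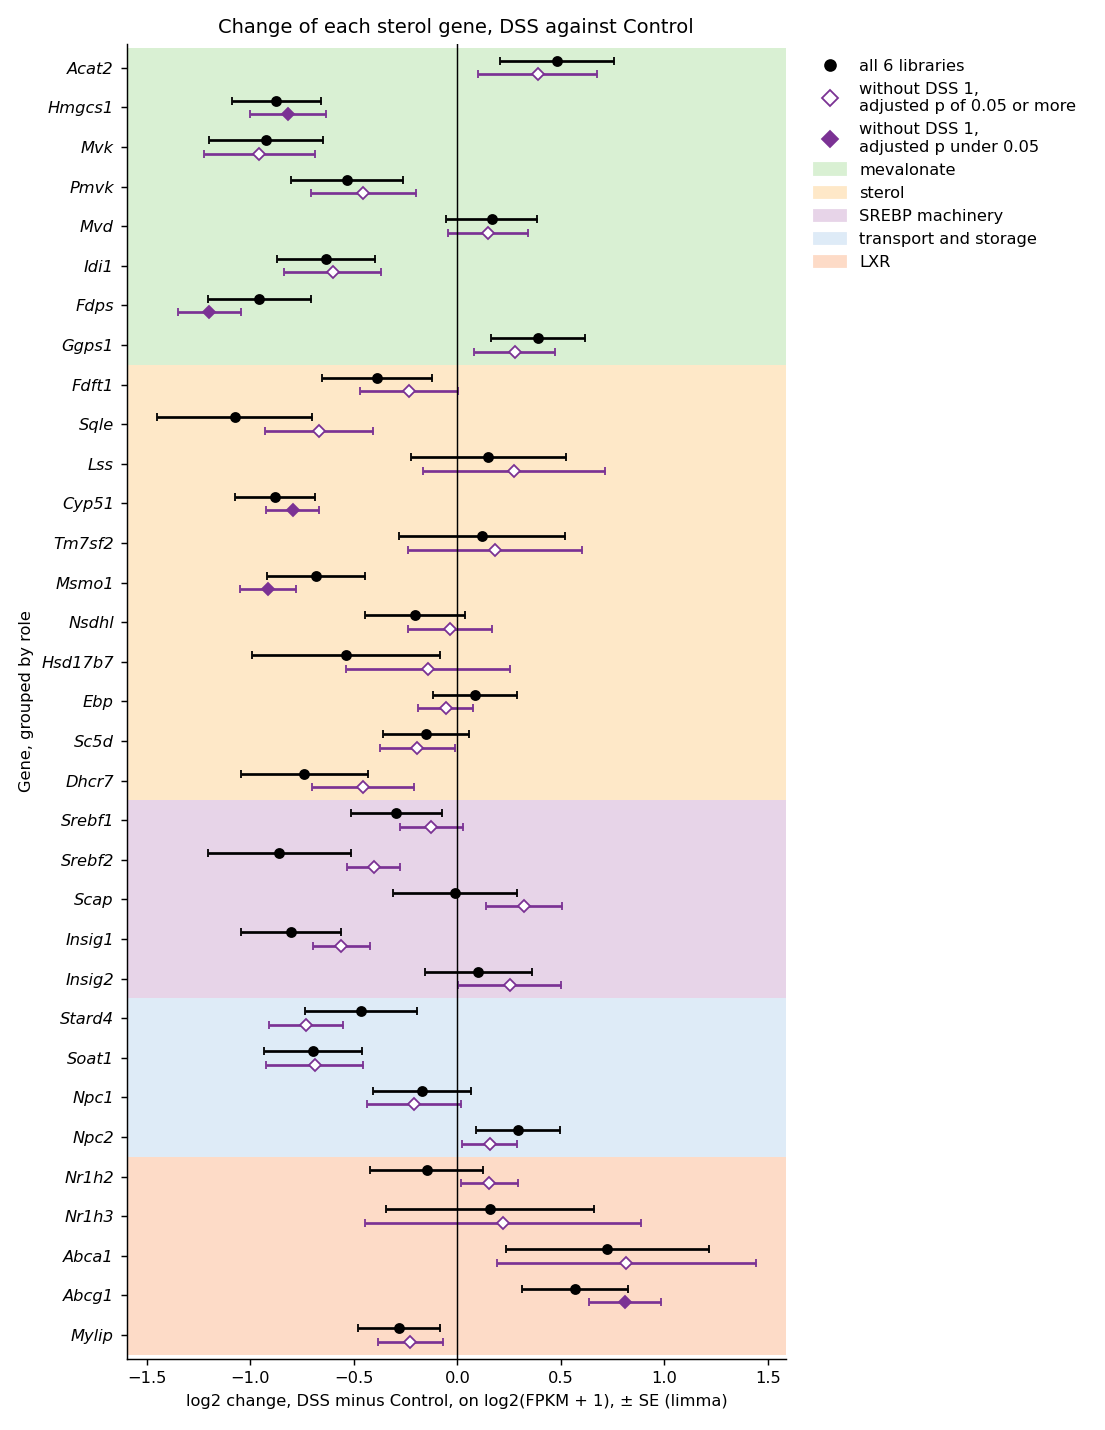
Log2 change (mean of log2(FPKM + 1) in DSS less that in Control) of the 33 sterol genes grouped by role, each with its standard error from limma: black circles use all 6 libraries and diamonds leave out DSS replicate 1, filled where the adjusted p was under 0.05. Most SREBP2 targets lie left of 0, down to -1.08 for Sqle, while Abca1 and Abcg1 lie right of 0 at 0.72 and 0.57, and the filled diamonds are Hmgcs1, Fdps, Cyp51, Msmo1 and Abcg1.

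The mevalonate pathway was lower at several steps between HMG-CoA and farnesyl diphosphate, while Acat2, Mvd and Ggps1 of its 8 enzymes had higher means in DSS. Coordinates are those of GRCm38 (mm10) in the GENCODE M21 annotation. Hmgcs1 (chr13:119690379-119708260, plus strand), which makes HMG-CoA, had 9.74, 9.23 and 13.2 FPKM in DSS and 21.98, 18.7 and 20.2 FPKM in Control libraries. The groups did not overlap, and the log2 change was -0.87 ± 0.22 (SE, adjusted p = 0.177, limma). Mvk (chr5:114444269-114460591, plus strand), the mevalonate kinase, had 6.14, 4.70 and 6.78 FPKM in DSS and 8.18, 12.6 and 16.2 FPKM in Control libraries. Control replicate 1 was the closest to the DSS libraries, and the log2 change was -0.92 ± 0.28 (SE, adjusted p = 0.280, limma). Idi1 (chr13:8885501-8892451, plus strand), which interconverts both isoprene building blocks, had 3.94, 3.78 and 4.84 FPKM in DSS and 8.65, 6.18 and 6.46 FPKM in Control libraries. The change was -0.63 ± 0.24 (SE, adjusted p = 0.424, limma). Fdps (chr3:89093588-89101959, minus strand), which makes farnesyl diphosphate, the branch point between sterols and isoprenoids, had 27.8, 16.8 and 16.1 FPKM in DSS and 44.3, 38.9 and 34.4 FPKM in Control libraries. DSS replicate 1 was the highest of the DSS libraries, and the log2 change was -0.96 ± 0.25 (SE, adjusted p = 0.196, limma), or -1.20 without that library (adjusted p = 0.00187, limma).

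Acat2 and Ggps1 were the mevalonate genes with every DSS library above every Control library. Acat2 (chr17:12942890-12960747, minus strand), the cytosolic thiolase of the first step, had 6.31, 4.91 and 5.10 FPKM in DSS and 2.38, 4.64 and 4.09 FPKM in Control libraries. The log2 change was 0.48 ± 0.28 (SE, adjusted p = 0.682, limma), and the groups were separated by less than the spread within either of them. Without Control replicate 1 the change was 0.26. Ggps1 (chr13:14050659-14063488, minus strand), which extends farnesyl to geranylgeranyl diphosphate for protein prenylation, had 15.7, 12.8 and 11.8 FPKM in DSS and 7.94, 11.1 and 11.2 FPKM in Control libraries. The log2 change was 0.39 ± 0.23 (SE, adjusted p = 0.696, limma), or 0.24 without Control replicate 1. Pmvk, the kinase that follows Mvk, averaged 8.41 ± 3.33 FPKM in DSS and 12.1 ± 1.41 FPKM in Control libraries (SD, n = 3 each). Mvd, the decarboxylase that makes the first isoprene unit, averaged 18.7 ± 3.72 FPKM in DSS and 16.4 ± 1.85 FPKM in Control libraries (SD, n = 3 each). Both had overlapping groups.

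**Figure D2:**
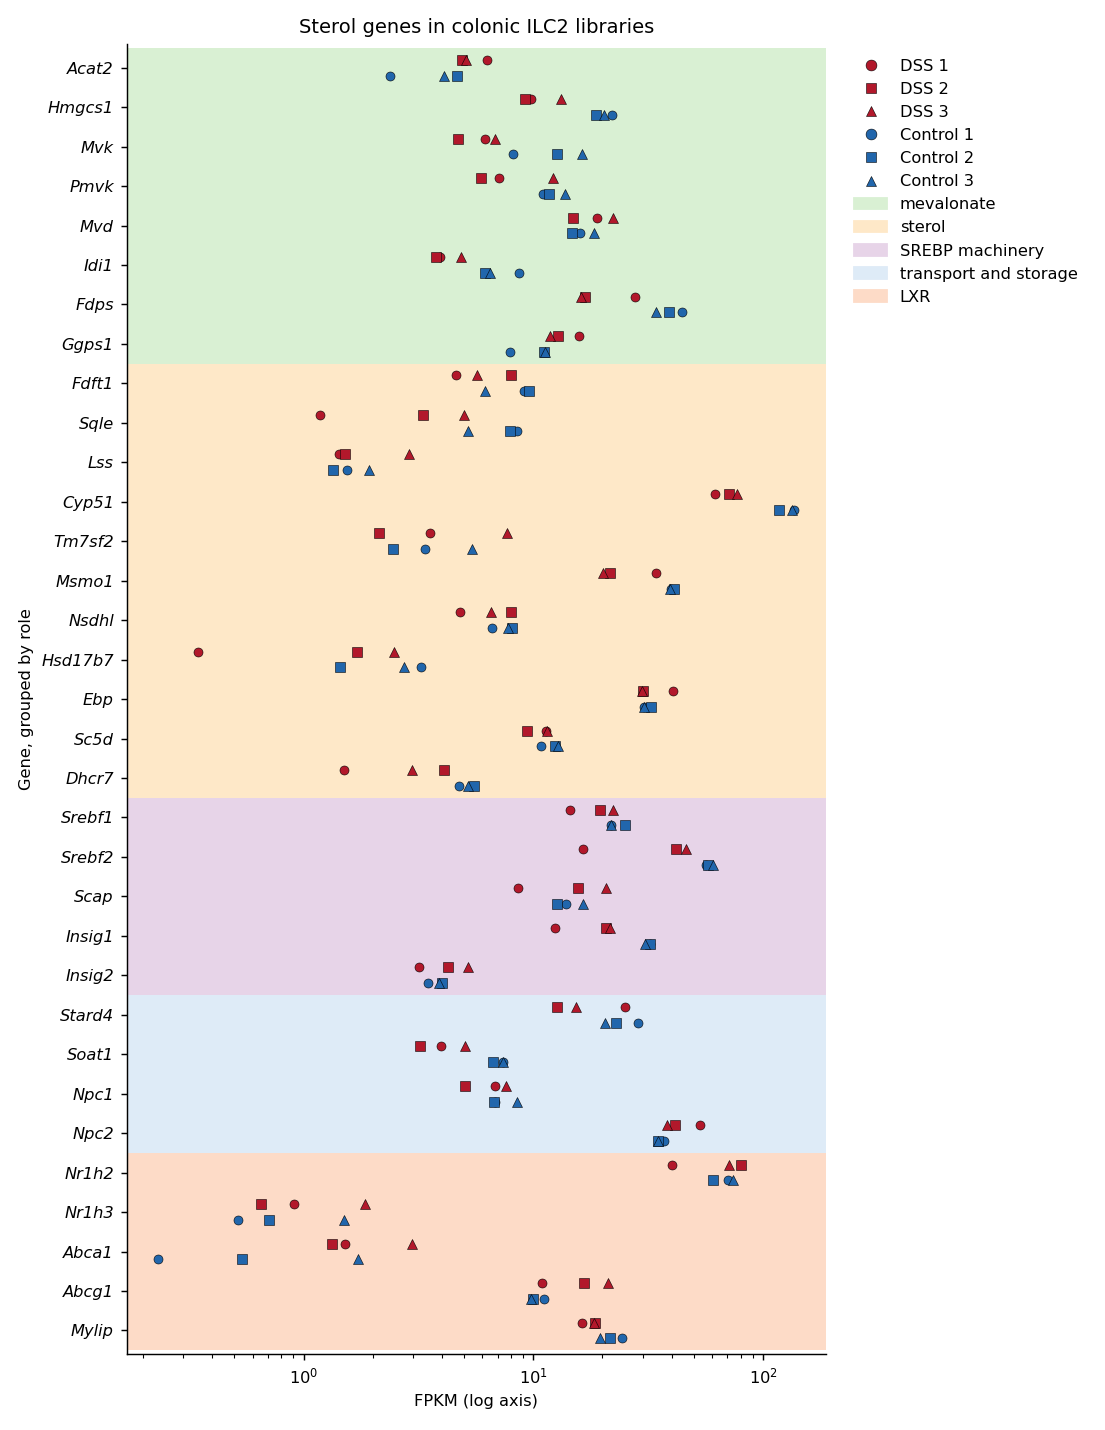
FPKM on a log axis of the 33 sterol genes, grouped by role, with 1 point for each of the 3 DSS (red, upper) and 3 Control (blue, lower) libraries. Cyp51 lies at 61.5 to 76.9 FPKM in DSS and 118 to 136 FPKM in Control libraries, and Srebf2 spreads from 16.4 to 46.0 FPKM among the DSS libraries.

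Among the 11 enzymes from squalene synthase to cholesterol, 8 had a lower mean log2 level in DSS, with 4 of them not overlapping. Cyp51 (chr5:4081145-4104746, minus strand), the lanosterol demethylase, was the most abundant sterol enzyme per length, with 61.5, 71.1 and 76.9 FPKM in DSS and 136, 118 and 134 FPKM in Control libraries. The DSS mean was 69.8 ± 7.79 and the Control mean 129 ± 9.95 FPKM (SD, n = 3 each), and the log2 change was -0.88 ± 0.19 (SE, adjusted p = 0.136, limma). Sqle (chr15:59315077-59331192, plus strand), the squalene epoxidase and a rate-limiting step, had 1.18, 3.31 and 4.99 FPKM in DSS and 8.52, 7.90 and 5.22 FPKM in Control libraries. DSS replicate 3 and Control replicate 3 nearly met, and the log2 change was -1.08 ± 0.38 (SE, adjusted p = 0.376, limma), or -0.67 without DSS replicate 1. That library held 79 Sqle fragments. Msmo1 (chr8:64718139-64733792, minus strand), which oxidises the methyl groups at carbon 4 of sterols, had 34.2, 21.5 and 20.01 FPKM in DSS and 39.8, 41.0 and 39.3 FPKM in Control libraries. The Control libraries were close together, DSS replicate 1 lay nearest to them, and the log2 change was -0.68 ± 0.24 (SE, adjusted p = 0.365, limma) with all libraries and -0.92 without that library (adjusted p = 0.00444, limma). Dhcr7 (chr7:143823145-143848410, plus strand), the reductase of the last step, had 1.49, 4.07 and 2.95 FPKM in DSS and 4.73, 5.53 and 5.21 FPKM in Control libraries. Its log2 change was -0.74 ± 0.31 (SE, adjusted p = 0.497, limma), or -0.46 without DSS replicate 1.

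The other 7 sterol enzymes overlapped between groups. Fdft1, the squalene synthase, averaged 6.12 ± 1.74 FPKM in DSS and 8.27 ± 1.82 FPKM in Control libraries (SD, n = 3 each). Hsd17b7, a ketosteroid reductase, averaged 1.51 ± 1.08 FPKM in DSS and 2.48 ± 0.930 FPKM in Control libraries (SD, n = 3 each), and rested on 24 fragments in DSS replicate 1. Lss, the lanosterol synthase, and the reductase Tm7sf2, the dehydrogenase Nsdhl, the isomerase Ebp and the desaturase Sc5d had log2 changes from -0.21 to 0.15. Ebp was the most abundant of these per length, at 33.4 ± 6.14 FPKM in DSS and 31.1 ± 1.13 FPKM in Control libraries (SD, n = 3 each).

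Of the 5 genes of the SREBP machinery, Srebf2 and Insig1 were lower in every DSS library. Srebf2 (chr15:82147181-82205379, plus strand), which encodes SREBP2 and is itself an SREBP2 target, had 16.4, 41.9 and 46.0 FPKM in DSS and 56.6, 57.9 and 60.8 FPKM in Control libraries. DSS replicate 1 was far below the other DSS libraries, and the log2 change was -0.86 ± 0.35 (SE, adjusted p = 0.474, limma), or -0.40 without that library (adjusted p = 0.124, limma). Insig1 (chr5:28071363-28078662, plus strand), an SREBP2 target whose protein holds SCAP back when sterol is plentiful, had 12.4, 20.6 and 21.6 FPKM in DSS libraries. In Control libraries it had 32.1, 32.3 and 30.5 FPKM, with a log2 change of -0.80 ± 0.24 (SE, adjusted p = 0.283, limma). Insig2, its paralogue that is not driven by SREBP2, had 3.17, 4.25 and 5.21 FPKM in DSS and 3.49, 3.99 and 3.90 FPKM in Control libraries, so that the DSS values spanned the Control values. Srebf1, which encodes SREBP1 and is an LXR target, had 14.4, 19.6 and 22.1 FPKM in DSS and 21.7, 24.99 and 21.9 FPKM in Control libraries, a log2 change of -0.29 ± 0.22 (SE, adjusted p = 0.783, limma), or -0.13 without DSS replicate 1. Scap, the escort protein, had 8.55, 15.7 and 20.7 FPKM in DSS and 13.8, 12.7 and 16.4 FPKM in Control libraries, with a log2 change of -0.01 that was 0.32 without DSS replicate 1.

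**Figure D3:**
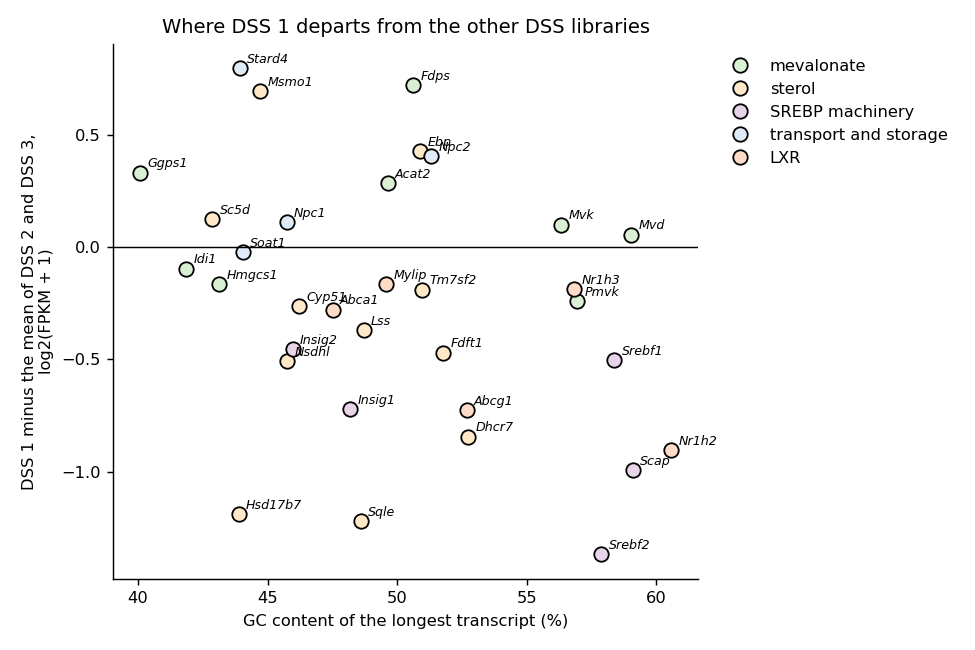
Difference in log2(FPKM + 1) between DSS replicate 1 and the mean of DSS replicates 2 and 3, against the GC content of each gene, for the 33 sterol genes. Spearman rho is -0.35 over the 33 genes and -0.27 over 11748 tested genes, and Srebf2 at -1.37 and Sqle at -1.22 lie lowest.

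The departure of DSS replicate 1 was uneven over these genes, as the plot against GC content shows. On the log2 scale it lay below the mean of the other DSS libraries by -1.37 for Srebf2, -1.22 for Sqle, -1.19 for Hsd17b7 and -0.99 for Scap. It lay above that mean by 0.80 for Stard4, 0.72 for Fdps and 0.69 for Msmo1. Among the 3 DSS libraries, replicate 1 was the lowest for 15 of the 33 genes, replicate 2 for 13 and replicate 3 for 5. Replicate 3 was the highest for 21. The same counts over all genes tested were not made. The median difference of replicate 1 from the mean of replicates 2 and 3 was -0.19 over the 33 genes and -0.34 over 11748 tested genes. The part of GC content in these results was not tested beyond a correction for GC content and length, under which the median log2 change of the SREBP2 targets was -0.56 and no sterol gene was called.

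Within pairs of sterol genes, ratios of FPKM did not overlap between groups in the 3 pairs computed, which were chosen after the values had been seen. The ratio of Fdps to Ggps1, successive enzymes of the isoprenoid branch, was 1.76, 1.31 and 1.37 in DSS and 5.58, 3.49 and 3.07 in Control libraries. The ratio of Insig1 to Insig2 was 3.92, 4.86 and 4.15 in DSS and 9.21, 8.08 and 7.82 in Control libraries. The ratio of Srebf2 to Srebf1 was 1.14, 2.14 and 2.08 in DSS and 2.61, 2.32 and 2.78 in Control libraries. Each gave an exact two-sided permutation p = 0.1, the smallest that 3 libraries against 3 can give, and as the pairs were picked for their values the p supports nothing. A ratio shows unequal change and does not show which gene of a pair differed.

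**Figure D4:**
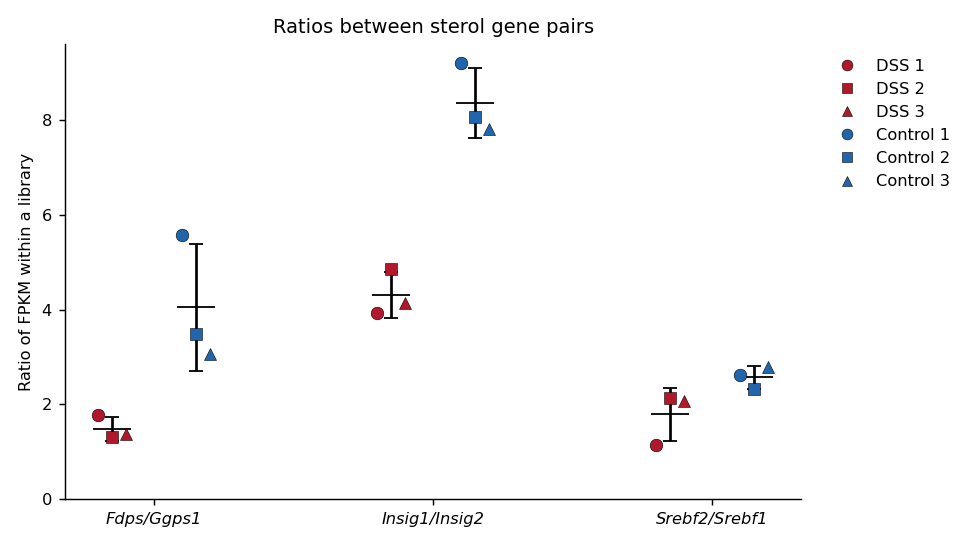
Ratios of FPKM for the pairs Fdps and Ggps1, Insig1 and Insig2, and Srebf2 and Srebf1 in each library, DSS left of Control, with bars for the mean and SD of 3 libraries. The Insig1 to Insig2 ratio lies between 3.92 and 4.86 in DSS and between 7.82 and 9.21 in Control libraries.

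Of the 4 genes of sterol transport and storage, Soat1 was lower and Npc2 higher in every DSS library. Soat1 (chr1:156424525-156474331, minus strand), which esterifies cholesterol for storage, had 3.97, 3.20 and 5.06 FPKM in DSS and 7.40, 6.66 and 7.36 FPKM in Control libraries, a log2 change of -0.70 ± 0.24 (SE, adjusted p = 0.359, limma). Npc2 (chr12:84754562-84773152, minus strand), which passes cholesterol out of lysosomes together with NPC1, had 53.0, 41.4 and 38.3 FPKM in DSS and 37.2, 34.8 and 34.9 FPKM in Control libraries. Its change was 0.29 ± 0.20 (SE, adjusted p = 0.752, limma), or 0.16 without DSS replicate 1. Npc1 averaged 6.48 ± 1.31 FPKM in DSS and 7.37 ± 1.007 FPKM in Control libraries (SD, n = 3 each). Stard4, a cytosolic sterol carrier and SREBP2 target, averaged 17.6 ± 6.46 FPKM in DSS and 24.0 ± 4.14 FPKM in Control libraries (SD, n = 3 each), and its log2 change was -0.47 with all libraries and -0.73 without DSS replicate 1 (adjusted p = 0.0518, limma), but -0.27 without DSS replicate 2 (adjusted p = 0.825, limma). Both genes overlapped between groups.

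The LXR genes had no common direction. Abcg1 (chr17:31057675-31117988, plus strand), the transporter that passes sterol to lipoprotein particles, had 10.9, 16.7 and 21.1 FPKM in DSS and 11.1, 9.93 and 9.80 FPKM in Control libraries. DSS replicate 1 lay within the Control range and the other DSS libraries above it, with a log2 change of 0.57 ± 0.26 (SE, adjusted p = 0.559, limma), or 0.81 without that library (adjusted p = 0.0294, limma). Without DSS replicate 3 the change was 0.37 (adjusted p = 0.493, limma). Abca1 (chr4:53030787-53159895, minus strand), the transporter that loads apolipoproteins with cholesterol, had 1.51, 1.33 and 2.97 FPKM in DSS and 0.233, 0.539 and 1.72 FPKM in Control libraries, from 28 to 154 fragments. Both replicates 3 were the highest of their group, and the log2 change was 0.72 ± 0.49 (SE, adjusted p = 0.745, limma), or 0.48 without Control replicate 1. At this low level its size depended on the pseudocount and the test, with 1.40 for a pseudocount of 0.1, 0.25 for a pseudocount of 5 and 1.79 by limma voom. Mylip (chr13:45389742-45412022, plus strand), the ubiquitin ligase that degrades lipoprotein receptors, had 16.3, 18.5 and 18.3 FPKM in DSS and 24.4, 21.6 and 19.4 FPKM in Control libraries, a log2 change of -0.28 ± 0.20 (SE, adjusted p = 0.757, limma). Nr1h2, the receptor LXR beta, had 40.0, 80.4 and 71.2 FPKM in DSS and 70.5, 60.5 and 73.7 FPKM in Control libraries, with overlap. Its log2 change was -0.15 with all libraries and 0.15 without DSS replicate 1. Nr1h3, LXR alpha, was far less abundant per length, at 0.907, 0.656 and 1.85 FPKM in DSS and 0.517, 0.710 and 1.49 FPKM in Control libraries, which rest on 24 to 38 fragments each and overlap.

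Averaged over each list and centred on the mean of the 6 libraries, the log2 level of the SREBP2 targets was -0.37, -0.29 and -0.03 in DSS and 0.23, 0.20 and 0.26 in Control libraries. The DSS libraries all lay below the Control libraries, with DSS replicate 3 the nearest. The LXR targets stood at -0.19, 0.07 and 0.38 in DSS and -0.16, -0.11 and 0.01 in Control libraries, with overlap. All genes tested stood at -0.17, -0.07 and 0.32 in DSS and -0.12, -0.11 and 0.15 in Control libraries, so both replicates 3 were high over all genes as well.

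**Figure D5:**
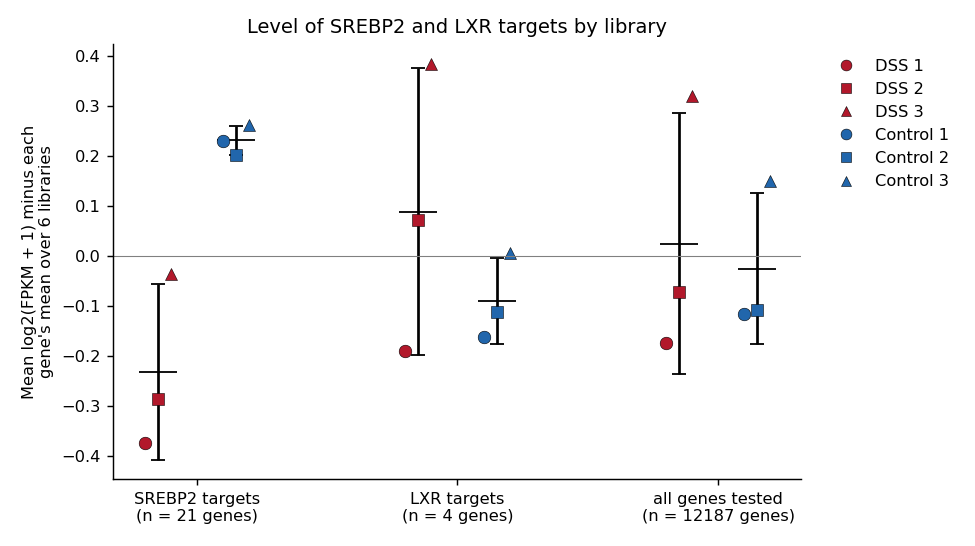
Mean log2(FPKM + 1) of the SREBP2 targets, the LXR targets and all genes tested in each library, centred on the mean of the 6 libraries, DSS left of Control, with 1 point per library and bars for the mean and SD of 3 libraries. The SREBP2 targets lie at -0.37 to -0.03 in DSS and 0.20 to 0.26 in Control libraries, while the other lists overlap.

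Exon overlaps and counting without strand limit some of these values. By the GENCODE M21 annotation of GRCm38, 12 of the 33 genes share exon bases with another gene, 9 of them chiefly with a gene on the opposite strand. Fdps shares 1124 bases with the read-through gene model Gm43738 on the same strand, an overlap that strand would not resolve. Hmgcs1 shares 557 bases with the antisense gene Gm48342. Scap shares 985 bases with 5830462I19Rik, Fdft1 774 with Ctsb, Cyp51 166 with Akap9 and Idi1 323 with Gm48574. Reads there cannot be told apart, and Nr1h2 has a pseudogene named after it.

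Genes around the pathway gave no call by limma either, and 2 of the sterol transfer genes and 3 of the other LXR genes below had an unadjusted p under 0.05. Among 16 genes of intracellular sterol transfer and hydrolysis, 12 had a lower and 4 a higher mean log2 level, with a median of -0.20. Osbpl9, an oxysterol-binding-protein relative, had 29.8, 40.5 and 38.2 FPKM in DSS and 78.3, 67.5 and 78.7 FPKM in Control libraries, with no overlap and a log2 change of -1.04 (adjusted p = 0.109, limma). Osbpl8 was also lower in all DSS libraries (-0.53) and Osbp higher (0.50). Of 10 genes of SREBP processing and degradation, 4 were lower and 6 higher (median 0.08). Among them the segregase subunit Vcp had a log2 change of -0.80, with 12.2, 35.0 and 36.1 FPKM in DSS and 45.6, 38.4 and 49.0 FPKM in Control libraries. DSS replicate 1 was far below the other DSS libraries. The protease Mbtps2 had a log2 change of 0.48 at a low level, 1.29 to 1.84 FPKM in DSS and 0.820 to 0.870 FPKM in Control libraries. Of 6 lipoprotein receptor genes 3 were expressed enough to test, 2 lower and 1 higher, with a median of -0.36. Of 9 other LXR targets and partners tested, 5 were lower and 4 higher, with a median of -0.01. Arl4c, a small GTPase, was lower in all DSS libraries (-0.74), as was the corepressor Ncor1 (-0.44), and Smpdl3a, a phosphodiesterase, was higher in all (0.57).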

How the data were processed

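RNA was sequenced from colonic ILC2s, 3 DSS and 3 Control libraries. Sorted cells were lysed in TRIzol; per the labels' protocols, the SMART-Seq HT kit gave full-length cDNA and the Nextera XT kit, which does not mark strand, gave paired-end libraries. The submitters' processing notes list cutadapt 1.9, HISAT2 2.2.1 and mm10 without their order. Which tool counted fragments, and on which annotation, is not given in the sources used here. FPKM values were deposited by the authors for 23268 genes, and samples were grouped by title.

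From these values, log2(FPKM + 1) was tested with limma 3.58.1 in R 4.3.3 (lmFit, eBayes with trend, two-sided) for 12187 genes (average FPKM of 1 or more over all libraries), with Benjamini-Hochberg adjustment over all of them and a threshold of 0.05. Whole fragments, recovered from the steps of FPKM for 22701 of 22701 genes above 0 (100.0%, tolerance 0.001), gave depths of 9962415 to 23119390 per library and served limma voom, an alternative. GC content was held for 11748 tested genes (96.4%). Scripts were tested on simulated data.

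The sterol genes, lists and roles were chosen with earlier results of these data known. Per-library values are given for genes whose groups did not overlap or with an unadjusted p under 0.05 and for all SREBP machinery and LXR genes; other genes are given by means or ranges, and up to 3 genes of a related list by the smallest p. A gene of a related list that this rule names and a marker list are not reported here. The reported fit was unpaired, and equal replicate numbers were taken as pairs only in the alternative fits with a replicate block. Deviations from the group means correlated at 0.19, 0.26 and 0.55 for replicates 1, 2 and 3. The labels give no source of pairing, and DSS replicate 2 correlated at 0.35 with Control replicate 1. The 20 alternatives covered the pseudocount, filter, scaling, test, block and each library left out.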

Additional observations from a re-analysis of the deposited data

How the results depend on the processing

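With the settings of the report limma called 27 genes (9 higher, 18 lower). The count was 14 with equal totals (6 higher, 8 lower), 9 with median-of-ratios scaling (5 higher, 4 lower), 3286 with library weights and 5 to 435 with each library left out in turn (435, 7 and 15 without DSS replicates 1, 2 and 3, and 5, 5 and 6 without Control replicates 1, 2 and 3). Alternatives chosen after seeing the data gave 635 with gene-by-gene weights, 8 without both replicates 3, 51 with a GC and length correction and 115 with that correction and the replicate block. The replicate block alone gave 22 genes (12 higher, 10 lower) and changed no call of a sterol gene. No sterol gene was called in any setting except without DSS replicate 1 (5 genes), with library weights (14 lower and 1 higher, beside 1822 lower, or 14.95%, and 1464 higher of all genes tested, where the weights did not converge and DSS replicate 2 had a weight of 17.8) and with gene-by-gene weights (9 lower and 1 higher, beside 384 lower, or 3.15%, and 251 higher of all genes tested). The cause was not tested. The SREBP2 median of -0.54 was -0.70 with a pseudocount of 0.1, -0.39 with 5, -0.66 with a mean FPKM of at least 5, -0.70 with voom, -0.72 without both replicates 3, and -0.72 to -0.45 with each library left out. It stayed below 0 in all of them. The median over all genes tested was -0.081 with a mean FPKM of at least 5, and lay between -0.12 (without DSS replicate 3) and 0.13 (without DSS replicate 1) in all fits. Without overlap, 9 to 12 targets lay lower. The counts of 11 and 12 came from fits with fewer libraries, where 11.5% to 25.8% of all genes tested did so. Fdps, Msmo1, Mylip and Npc2 overlapped between groups with median-of-ratios scaling and with the GC and length correction, with or without the block. Pmvk did not overlap in those settings. Acat2 and Ggps1 overlapped in the same settings and with quantile normalization. The LXR median of 0.14 was -0.28 with a mean FPKM of at least 5, which tests 3 of the 4 targets, -0.38 without both replicates 3, which also leaves 3, and 0.030 to 0.34 with each library left out. Of the 33 genes, 24 kept their direction in each alternative that tested them, and 9 changed sign in some: Tm7sf2, Ebp, Lss, Mvd and Nsdhl, all between -0.21 and 0.17 as reported, and the 4 that follow. Scap, at -0.01, was 0.0044 with a pseudocount of 5, 0.017 with median-of-ratios scaling, 0.10 with quantile normalization, 0.19 and 0.18 with either weighting, 0.32 without DSS replicate 1, 0.086 without Control replicate 3 (-0.27 to 0.32 with each library left out) and 0.074 with the GC correction, with or without the block. Insig2, at 0.10, was -0.035 without DSS replicate 3 (-0.035 to 0.25 with each library left out) and -0.018 without both replicates 3. Nr1h2, at -0.15, was 0.27 and 0.18 with the weightings and 0.15 without DSS replicate 1 (-0.34 to 0.15 with each library left out), and Nr1h3, at 0.16, was -0.14 with quantile normalization and -0.082 with library weights. Nr1h3, Tm7sf2 and Abca1 rest on the fewest fragments in all, and Hsd17b7 had 24 in DSS replicate 1.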

Other observations

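Related lists outside the report were tested in the same fit, and none of their genes passed (limma; Rabggtb alone had an unadjusted p under 0.05). Of 14 genes of the isoprenoid branch, which use farnesyl and geranylgeranyl groups for prenylation, ubiquinone and dolichol, 12 had a lower and 2 a higher mean log2 level in DSS, with a median of -0.18. Rabggtb, a subunit of the enzyme that prenylates Rab proteins, had 14.9, 21.5 and 18.5 FPKM in DSS and 23.2, 35.2 and 27.7 FPKM in Control libraries, with a log2 change of -0.62 (adjusted p = 0.433, limma). Of 10 SREBP1 lipid enzymes 7 were tested, 5 lower and 2 higher, with a median of -0.34. Elovl6, a fatty acid elongase, had 1.37, 1.67 and 1.51 FPKM in DSS and 2.90, 2.27 and 2.99 FPKM in Control libraries, and did not overlap. Of 6 oxysterol enzymes 2 were tested, both with a higher mean log2 level and overlapping groups.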
